A study of Mus musculus with 12 samples.

Results

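The interleukin and tumour necrosis factor (TNF) superfamily genes of a mouse gene panel were described across kidneys of Aim2 knockout (KO) and Aim2 wild-type (WT) mice with and without nephrotoxic serum (NTS). Members were the endogenous genes whose symbol starts with Il and a digit or with Tnf, other than Il1b, Il1rn, Il6, Il18, Il18bp, Il34 and Tnfaip3. This gave 45 of the 770 genes on the panel: 19 ligands, 23 receptors, 2 decoy receptors and Tnfaip6, a secreted hyaluronan-binding protein induced by TNF. NTS is a serum against the glomerulus that sets off anti-glomerular-basement-membrane (anti-GBM) glomerulonephritis, an antibody-driven inflammation of the kidney filter.

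The 12 kidneys came from female mice aged 8 to 10 weeks, 3 in each of 4 groups: untreated WT, WT given NTS, untreated KO and KO given NTS, with treated mice analysed at day 9. The KO mice were described as B6 and the WT mice as F1 littermates, so genotype and any difference of strain background cannot be told apart. The level of the targeted gene was not analysed here, and the model was not limited to any cell type by its labels. RNA was taken from kidney tissue, so a signal can fall because fewer cells of a type are present or because each cell holds less RNA, and these cannot be told apart.

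Interleukins and TNF superfamily ligands are secreted or membrane-bound signals between cells. Many interleukin receptors are built from chains that several cytokines share, such as the common gamma chain, and act through Janus kinases and STAT transcription factors, while those of the IL-1 family act through the adaptor Myd88. TNF superfamily receptors recruit TRAF adaptors or death domain proteins, and so switch on NF-kB or cell death. In glomerulonephritis, both families carry signals between infiltrating leukocytes and resident kidney cells.

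The labels used here name no assay, and the deposited signal is described from its values. Above the lowest level of a sample, signals were whole multiples of 1 step of 0.955 to 1.09 units, and housekeeping genes had nearly the same geometric mean in all samples. The lowest level equalled the geometric mean of a sample's 8 negative controls (10.0 to 15.1) and is called its floor. Of the 45 members, 23 were above the floor in all 12 samples and 2 (Il2 and its receptor chain Il2ra) were at the floor in all 12. A gene was tested if its signal reached 20 in at least 3 samples; 30 members passed (12 ligands, 16 receptors, the decoy receptor Il1r2 and Tnfaip6) and 15 did not, of 677 genes tested in all. Changes are differences of log2(signal + 1) between group means, with standard error (SE), tested with limma, with the Benjamini-Hochberg adjustment made over the 677 genes, and a gene was called at an adjusted p under 0.05. Folds are on the same scale and understate the change of genes near the floor. Probes are not given for these genes, so levels were compared between samples and not between genes.

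The summed signal of the endogenous genes was 1335200 to 1346840 in KO mice given NTS and 596307 to 967120 in the other kidneys. Samples within a group were not alike. WT NTS 1 was the highest of its group for 20 of the 30 tested members (66.7%) and for 62.9% of all tested genes. WT NTS 2 was the lowest of its group for 19 members (63.3%) and for 65.7% of all tested genes. Cell type markers also moved with the groups. The summed signal of 8 macrophage markers (of 9 listed, Cd68, Cd163, Mrc1, Csf1r, Itgam, Adgre1, Cd14 and Fcgr1) was 912 to 983 in WT controls, 784 to 1915 in WT mice given NTS, 952 to 1053 in KO controls and 3007 to 3822 in KO mice given NTS. After NTS 6 of the 8 rose in KO kidneys, and 1 (Fcgr1) rose in WT kidneys. Egf and Fbp1, the 2 of 12 listed nephron markers on the panel, summed to 40897 to 71751, 34343 to 48236, 58047 to 66819 and 9501 to 17046 in the same order. The 11 T cell markers summed to 169 to 225, 183 to 276, 213 to 233 and 219 to 289, with none above 58.2 in any sample and 3 at the floor in at least 6 of the 12 samples. The 5 neutrophil markers (of 7 listed) summed to 94.3 to 181, 122 to 264, 95.03 to 157 and 249.8 to 361. The 5 B and plasma cell markers (of 7) stayed between 93.0 and 123 in all groups, with 3 at the floor in at least 6 samples. The 5 natural killer cell markers (of 6) summed to 66.6 to 96.0, 94.5 to 124, 92.8 to 101 and 130.2 to 141, and the 3 endothelial markers (of 5) to 3232 to 3572, 2444 to 3329, 3216 to 3766 and 1816 to 2862. Markers of a list did not all move together. In WT, mean Egf was 25765 in controls and 9350 after NTS, and mean Fbp1 31916 and 32818. Endothelial means in treated WT and treated KO kidneys were 381 and 513 (Cdh5), 1099 and 592 (Kdr) and 1374 and 1313 (Pecam1). After NTS in KO, the 3 tested neutrophil markers (Csf3r, S100a8 and S100a9) rose, as did Cd4 of 8 tested T cell markers. Klrd1 of 3 tested natural killer cell markers rose in both genotypes. The part of these shifts in the results for the members was not tested.

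In WT kidneys, 1 of the 30 tested members was called after NTS (3.33%), against 7.98% of all tested genes (54 of 677; 5.47% higher). It was also the 1 member whose treated and untreated WT kidneys did not overlap, against 19.8% of all tested genes. That gene was Il33, a nuclear alarmin released from damaged cells. Il33 signal was 152, 189 and 178 in the WT controls, 423, 264 and 267 in the WT mice given NTS, 161, 119 and 182 in the KO controls and 531, 531 and 424 in the KO mice given NTS. Every WT kidney given NTS was above every WT control, and WT NTS 1 stood well above the other 2 treated WT kidneys. Il33 rose 1.79-fold (log2 change 0.84, SE 0.23, adjusted p = 0.0445). The call was lost in 15 of 24 alternative settings, among them leaving out WT control 1, WT control 3 or WT NTS 1.

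The median log2 change of the 30 members in WT was 0.08, the same as that of all 677 genes. After Il33, the smallest p values were those of 5 receptors: Il10ra (log2 change 0.82, SE 0.31, adjusted p = 0.144), Il2rg (log2 change 0.65, SE 0.30, adjusted p = 0.222), Tnfrsf11a (log2 change 0.72, SE 0.36, adjusted p = 0.28), Tnfrsf10b (log2 change 0.71, SE 0.38, adjusted p = 0.303) and Il21r (log2 change 0.63, SE 0.42, adjusted p = 0.412). None passed the threshold, and in each of the 5 at least 1 treated WT kidney lay within the range of the WT controls. For all 5, WT NTS 1 was the highest kidney of its group.

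In KO kidneys, 16 of the 30 tested members were called after NTS (53.3%), 13 higher and 3 lower, against 48.2% of all tested genes (39.6% higher and 8.57% lower). The members' share was thus near that of the panel. The median log2 change was 0.51 over the members and 0.42 over all tested genes. Of the 16 receptors 9 rose and 1 fell, with a median log2 change of 0.98; of the 12 ligands 4 rose and 2 fell, with a median of 0.08. All 6 tested TNF superfamily receptors had log2 changes above 0 (0.48 to 2.34), as did 472 of all 677 tested genes. Of these 6 receptors 4 rose, while 3 of 8 TNF superfamily ligands rose and 1 fell. Treated and untreated KO kidneys did not overlap for any of the 16 called members, nor for Il16, Il23r and Tnfsf13, which were not called; 65.6% of all tested genes did not overlap. The medians of ligands and receptors are descriptions of the tested genes, and their difference was not tested.

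The balance of higher and lower calls depended on the scaling. With the median of each sample set equal, the median log2 change of all genes moved from 0.42 to -0.35 and 5 members were called higher and 9 lower. Quantile normalization moved that median to -0.19, with 5 members higher and 10 lower, against 159 and 214 of all tested genes. Both scalings called Il11ra1, Il15, Il16, Il22ra1, Tnfsf10, Tnfsf12, Tnfsf13, Tnfsf18 and Tnfsf9 lower, and quantile normalization also Il1r2. Scaling on the 6 positive controls gave 0.62, with 13 members higher and 1 lower, against 270 and 18 of all tested genes. Scaling on 4 reference genes gave 0.20, with 11 higher and 3 lower, against 221 and 94. The receptor median was above the ligand median in all 5 scalings: 0.98 against 0.08 as deposited, 0.21 against -0.69 after median centring, 0.22 against -0.70 after quantile normalization, 1.18 against 0.28 on the positive controls and 0.76 against -0.14 on the reference genes. Median centring, the positive controls and the reference genes move all genes of a sample by nearly the same amount. These scalings could therefore hardly change the gap between the receptor and ligand medians, and only quantile normalization could. Directions below are those of the deposited scaling. Il15, Il21r, Il33, Tnfrsf11a and Tnfsf8 were called in KO kidneys in the same direction under all 5 scalings and with any 1 sample left out.

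**Figure D1:**
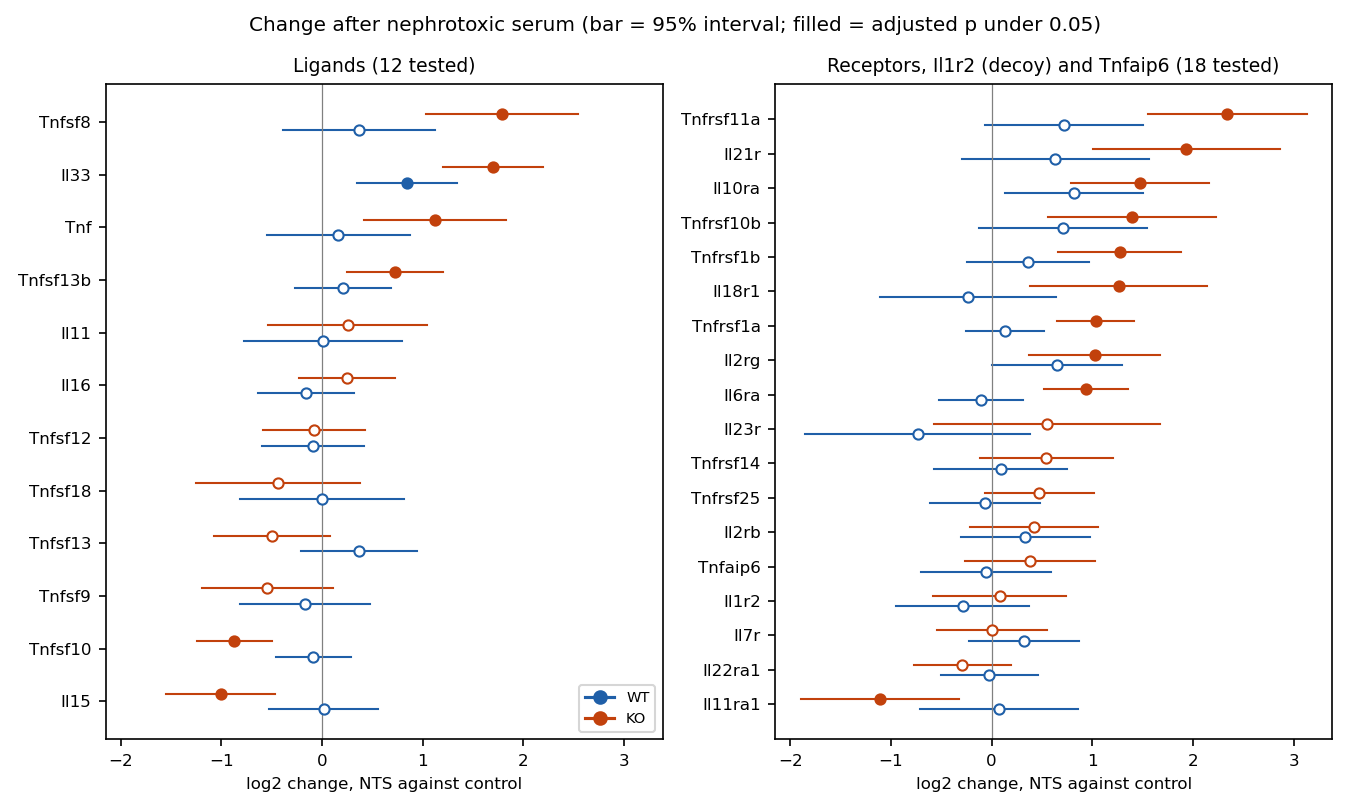
Log2 change after NTS (x axis, difference of mean log2(signal + 1) against untreated kidneys of the same genotype) for the 12 tested ligands and for the 18 tested receptors, Il1r2 and Tnfaip6 together, in WT (blue) and KO (orange). Points are estimates, bars their 95% intervals and filled points an adjusted p under 0.05. Il33 is the only filled WT point, and 16 KO points are filled, 13 of them to the right of 0.

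Among interleukin ligands, Il33 and Il15 were called in KO kidneys, in opposite directions. The treated KO kidneys held the highest 3 values of Il33 in the series, and Il33 rose 3.23-fold over KO controls (log2 change 1.69, SE 0.23, adjusted p = 0.000195), beside a 1.79-fold rise in WT. For Il15, a survival factor of natural killer and memory CD8 T cells, signal was 151, 189 and 154 in the WT controls, 119, 202 and 187 in the WT mice given NTS, 169, 169.9 and 194 in the KO controls and 100.3, 103 and 65.2 in the KO mice given NTS. All 3 treated KO kidneys lay below every other kidney. Il15 fell 2.01-fold (log2 change -1.01, SE 0.25, adjusted p = 0.00534). Il16, a chemoattractant of CD4+ cells, gave a signal of 60.2, 51.1 and 56.5 in the WT controls, 63.1, 38.6 and 50.4 in the WT mice given NTS, 61.3, 68.2 and 73.8 in the KO controls and 87.5, 81.0 and 73.8 in the KO mice given NTS. Its lowest treated KO kidney was level with its highest KO control (log2 change 0.25, adjusted p = 0.371), and it was not called. For Il11, which signals through gp130, signal was 19.1, 32.8 and 16.8 in the WT controls, 36.9, 15.6 and 18.4 in the WT mice given NTS, 32.9, 34.6 and 24.9 in the KO controls and 53.1, 28.1 and 32.6 in the KO mice given NTS. Treated and untreated groups overlapped in both genotypes.

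Among TNF superfamily ligands, Tnf, Tnfsf8 and Tnfsf13b rose in KO kidneys and Tnfsf10 fell. Tnf, the founding ligand of the family, had a signal of 15.1, 24.1 and 12.4 in the WT controls, 25.2, 12.5 and 20.4 in the WT mice given NTS, 14.2, 20.6 and 20.8 in the KO controls and 42.3, 30.2 and 53.7 in the KO mice given NTS. Most of these values were close to the floor, and the treated KO kidneys were above all 9 others. Tnf rose 2.18-fold (log2 change 1.12, SE 0.32, adjusted p = 0.0132), a call lost with KO control 1 or KO NTS 3 left out and after median centring or quantile normalization. Tnfsf8 (CD30 ligand) signal was 21.97, 14.7 and 21.99 in the WT controls, 38.8, 20.9 and 19.4 in the WT mice given NTS, 16.4, 14.8 and 14.2 in the KO controls and 48.2, 36.7 and 91.1 in the KO mice given NTS. KO NTS 3 was the highest kidney, WT NTS 1 reached the range of the treated KO kidneys, and 2 of the 3 KO controls were at the floor. Tnfsf8 rose 3.44-fold (log2 change 1.78, SE 0.35, adjusted p = 0.0013).

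Tnfsf13b (BAFF), a survival factor of B cells, had a signal of 38.2, 47.3 and 35.6 in the WT controls, 53.4, 43.8 and 42.7 in the WT mice given NTS, 35.03, 53.0 and 41.6 in the KO controls and 67.8, 74.5 and 71.0 in the KO mice given NTS. The 3 treated KO kidneys were the highest of the 12. It rose 1.65-fold (log2 change 0.72, SE 0.22, adjusted p = 0.0165), but the estimate was -0.05 after median centring and -0.19 after quantile normalization, and the call was also lost on the reference genes and without KO control 1. Tnfsf10 (TRAIL), a ligand of death receptors, had a signal of 565, 639 and 576 in the WT controls, 565, 471 and 649 in the WT mice given NTS, 891, 724 and 681 in the KO controls and 408, 362 and 483 in the KO mice given NTS. The untreated KO kidneys were the highest of the series, and KO NTS 3 was within the range of the treated WT kidneys. Tnfsf10 fell 1.83-fold in KO (log2 change -0.87, SE 0.17, adjusted p = 0.00136), a call lost on the positive controls, where its log2 change was -0.68.

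On the deposited scaling, the other ligands that passed the filter were called in no comparison. Tnfsf12 (TWEAK) had a mean signal ± SD (n = 3) of 492 ± 141 in WT controls, 456 ± 113 in WT mice given NTS, 582 ± 37.4 in KO controls and 549 ± 44.1 in KO mice given NTS. Tnfsf13 (APRIL), a plasma cell survival factor, had a signal of 42.0, 61.7 and 58.6 in the WT controls, 66.0, 51.1 and 97.0 in the WT mice given NTS, 63.5, 84.4 and 65.5 in the KO controls and 54.1, 45.4 and 49.9 in the KO mice given NTS. Its treated KO kidneys lay below all KO controls (log2 change -0.50, adjusted p = 0.138). Tnfsf18 (GITR ligand) signal was 21.97, 17.4 and 26.2 in the WT controls, 27.2, 15.6 and 23.3 in the WT mice given NTS, 14.2, 48.7 and 25.99 in the KO controls and 16.7, 18.4 and 23.0 in the KO mice given NTS. For Tnfsf9 (4-1BB ligand), signal was 22.9, 17.4 and 13.6 in the WT controls, 11.7, 15.6 and 20.4 in the WT mice given NTS, 16.4, 35.7 and 22.9 in the KO controls and 16.7, 16.2 and 15.1 in the KO mice given NTS. For both of these genes KO control 2 was the highest kidney of the series and all groups overlapped.

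**Figure D2:**
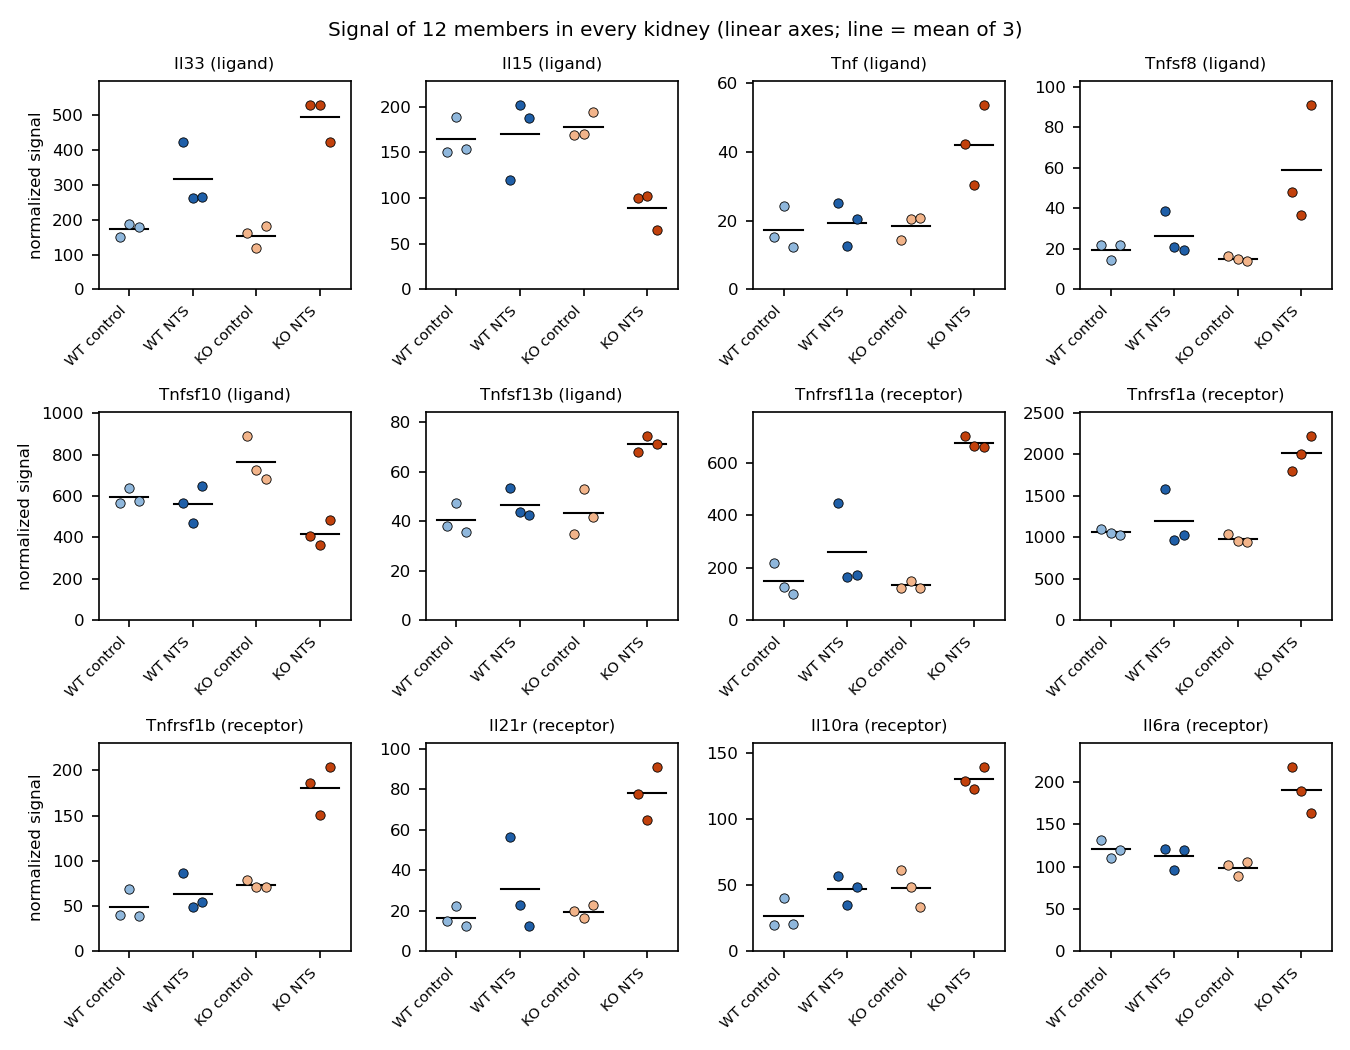
Normalized signal (y axis, linear, from 0) of 6 ligands and 6 receptors in each of the 12 kidneys, by group, with a line at the mean of 3. The 3 KO kidneys given NTS are the highest of all for 9 of the 12 genes drawn, and the lowest of all for Il15.

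Among TNF superfamily receptors, Tnfrsf11a, Tnfrsf1a, Tnfrsf1b and Tnfrsf10b rose in KO kidneys. Tnfrsf11a (RANK), the receptor of RANKL, had a signal of 219, 126 and 102 in the WT controls, 446, 164 and 173 in the WT mice given NTS, 125, 151 and 123 in the KO controls and 703, 665 and 659.8 in the KO mice given NTS. The treated KO kidneys lay close together and above all others, while WT NTS 1 stood apart from the other treated WT kidneys. Tnfrsf11a rose 5.07-fold (log2 change 2.34, SE 0.36, adjusted p = 0.00032), the highest estimate of the 30 members. Tnfrsf1a (TNFR1), the death domain receptor of TNF, had a signal of 1101, 1059 and 1025 in the WT controls, 1583, 973 and 1027 in the WT mice given NTS, 1042, 959 and 942 in the KO controls and 1802, 2011 and 2228 in the KO mice given NTS. Here too the treated KO kidneys were above all others, with WT NTS 1 the next. Tnfrsf1a rose 2.05-fold (log2 change 1.03, SE 0.18, adjusted p = 0.000614), a call lost after median centring (0.26). For Tnfrsf1b (TNFR2), the receptor of TNF found mainly on leukocytes, signal was 40.1, 68.5 and 38.7 in the WT controls, 86.4, 49.0 and 54.3 in the WT mice given NTS, 78.8, 71.4 and 70.7 in the KO controls and 186, 151 and 204 in the KO mice given NTS. Its KO controls were above all 3 WT controls and its treated KO kidneys above all 9 others. It rose 2.41-fold (log2 change 1.27, SE 0.28, adjusted p = 0.00275), a call lost after median centring and quantile normalization.

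Tnfrsf10b, the death receptor of TRAIL, had a signal of 38.2, 26.04 and 12.4 in the WT controls, 57.3, 32.3 and 31.0 in the WT mice given NTS, 35.03, 23.8 and 28.1 in the KO controls and 87.5, 57.2 and 91.1 in the KO mice given NTS. The lowest treated KO kidney was level with the highest treated WT kidney. Tnfrsf10b rose 2.63-fold (log2 change 1.40, SE 0.38, adjusted p = 0.01), a call lost after median centring and quantile normalization. The other 2 tested TNF superfamily receptors were called in no comparison. Tnfrsf14 (HVEM) had a mean signal of 36.3 ± 12.8 in WT controls, 38.6 ± 12.8 in WT mice given NTS, 39.7 ± 4.82 in KO controls and 59.1 ± 13.6 in KO mice given NTS (SD, n = 3). Tnfrsf25 (death receptor 3) gave 21.6 ± 3.35 in WT controls, 20.8 ± 4.70 in WT mice given NTS, 17.2 ± 4.68 in KO controls and 23.9 ± 3.47 in KO mice given NTS.

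Among interleukin receptors, Il21r, Il10ra, Il6ra, Il2rg and Il18r1 rose in KO kidneys and Il11ra1 fell. Il21r, the receptor of IL-21, had a signal of 15.1, 22.2 and 12.4 in the WT controls, 56.3, 22.9 and 12.6 in the WT mice given NTS, 19.7, 16.2 and 22.9 in the KO controls and 77.7, 64.8 and 91.1 in the KO mice given NTS. The treated KO kidneys were above all 9 others, and WT NTS 1 lay far above the other treated WT kidneys. Il21r rose 3.83-fold (log2 change 1.94, SE 0.42, adjusted p = 0.00277). For Il2rg, the common gamma chain that the IL-21 receptor also uses, signal was 65.9, 137 and 78.5 in the WT controls, 193, 99.1 and 144 in the WT mice given NTS, 132, 142 and 116 in the KO controls and 312, 232 and 257 in the KO mice given NTS. It was highest in the treated KO kidneys and rose 2.03-fold (log2 change 1.02, SE 0.30, adjusted p = 0.0135), a call lost without KO NTS 1 and after median centring or quantile normalization. The other common gamma chain partners tested were not called: Il2rb, the chain shared by the IL-2 and IL-15 receptors, had a mean signal of 36.5 ± 14.3 in WT controls, 44.5 ± 6.64 in WT mice given NTS, 51.9 ± 4.78 in KO controls and 71.2 ± 19.2 in KO mice given NTS, and Il7r had 21.1 ± 3.56 in WT controls, 27.1 ± 7.75 in WT mice given NTS, 35.1 ± 3.89 in KO controls and 35.3 ± 5.70 in KO mice given NTS (SD, n = 3).

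Il10ra, the ligand-binding chain of the IL-10 receptor, had a signal of 20.1, 40.5 and 20.9 in the WT controls, 57.3, 35.5 and 48.5 in the WT mice given NTS, 61.3, 48.7 and 33.3 in the KO controls and 129, 123 and 140.0 in the KO mice given NTS. The treated KO kidneys were all above the 9 others. Il10ra rose 2.78-fold (log2 change 1.47, SE 0.31, adjusted p = 0.00233), a call lost after quantile normalization (0.58). Il6ra, the alpha chain of the IL-6 receptor, had a signal of 132, 111 and 119 in the WT controls, 121, 95.9 and 120.3 in the WT mice given NTS, 102, 88.7 and 106 in the KO controls and 218, 190.0 and 164 in the KO mice given NTS. The WT groups overlapped and the KO groups did not. Il6ra rose 1.91-fold (log2 change 0.94, SE 0.19, adjusted p = 0.0018), a call lost after median centring (0.16) and quantile normalization (0.13).

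Il18r1, the ligand-binding chain of the IL-18 receptor, had a signal of 78.3, 27.0 and 27.2 in the WT controls, 41.7, 33.4 and 25.2 in the WT mice given NTS, 37.2, 37.9 and 21.8 in the KO controls and 61.0, 74.5 and 98.8 in the KO mice given NTS. WT control 1 lay within the range of the treated KO kidneys and far above the other 2 WT controls. Il18r1 rose 2.40-fold (log2 change 1.26, SE 0.40, adjusted p = 0.0209), a call lost under 3 of the other 4 scalings and without KO control 3 or KO NTS 3. For Il11ra1, the alpha chain of the IL-11 receptor, signal was 44.9, 109.9 and 46.1 in the WT controls, 52.4, 54.2 and 94.1 in the WT mice given NTS, 66.8, 61.7 and 101 in the KO controls and 32.5, 32.4 and 37.4 in the KO mice given NTS. All 3 treated KO kidneys were below the other 9, and WT control 2 was more than double either of the other WT controls. It fell 2.16-fold (log2 change -1.11, SE 0.36, adjusted p = 0.0227), a call lost on the positive controls and without KO control 3, KO NTS 1 or KO NTS 2. Mouse Il11ra1 has a near-identical copy, Il11ra2, which the same measurement may also read, so its level is uncertain.

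On the deposited scaling, the remaining tested members were called in no comparison. Il22ra1, the epithelial chain of the IL-22 receptor, had a mean signal of 38.8 ± 3.75 in WT controls, 38.3 ± 4.67 in WT mice given NTS, 47.6 ± 4.52 in KO controls and 39.3 ± 9.07 in KO mice given NTS (SD, n = 3). Il23r, the specific chain of the IL-23 receptor, had a signal of 75.5, 14.7 and 12.4 in the WT controls, 19.4, 10.0 and 14.6 in the WT mice given NTS, 16.4, 17.3 and 16.6 in the KO controls and 24.6, 23.8 and 26.9 in the KO mice given NTS. WT control 1 was more than 2-fold above every other kidney, and the WT control mean rests on it. The IL-1 decoy receptor Il1r2 had a signal of 33.4, 31.8 and 19.9 in the WT controls, 23.3, 15.6 and 31.0 in the WT mice given NTS, 33.9, 51.9 and 30.1 in the KO controls and 42.3, 43.2 and 34.5 in the KO mice given NTS. Tnfaip6 had a mean of 17.0 ± 2.32 in WT controls, 16.8 ± 4.97 in WT mice given NTS, 22.6 ± 8.58 in KO controls and 29.0 ± 6.58 in KO mice given NTS.

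**Figure D3:**
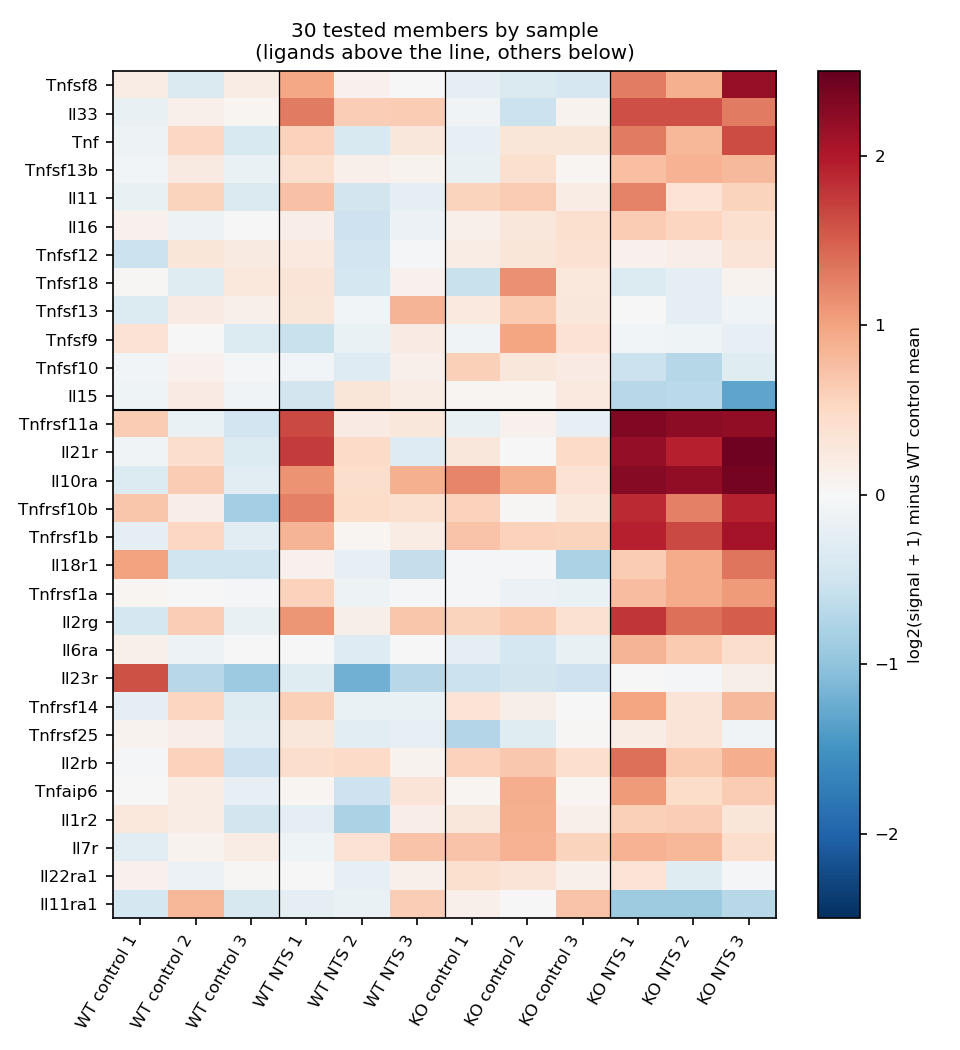
Each of the 30 tested members (rows, ligands above the line) in each of the 12 kidneys (columns), as log2(signal + 1) minus the mean of the 3 WT controls, with red higher and blue lower and the colour scale ending at 2.5 in either direction. The 3 KO columns after NTS are the reddest among the receptors, and Il15, Tnfsf10 and Il11ra1 are blue there.

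The promoters of 6 members are printed. Il33, Tnfsf8, Tnfrsf11a and Il21r were called in KO under every scaling, as was Il15, which had no promoter entry. Tnfrsf1a and Tnfrsf1b are the 2 TNF receptors, and both lost their KO call after median centring. Each promoter is a 300-base window of a RefSeq promoter table (GRCm38.p6), 250 bases before and 50 after an annotated start, 5′ to 3′ on the gene's strand. That start is the outer end of the gene in the RefSeq gene table for Il33, Tnfrsf1a and Tnfrsf1b, and lies 50 bases inside it for Tnfrsf11a, 177 for Il21r and 224 for Tnfsf8. Il33 (plus strand, chr19:29924863-29925162, the first of 2 annotated starts), Tnfsf8 (minus strand, chr4:63861235-63861534), Tnfrsf11a (plus strand, chr1:105780473-105780772), Tnfrsf1a (plus strand, chr6:125349473-125349772), Tnfrsf1b (minus strand, chr4:145246821-145247120) and Il21r (plus strand, chr7:125603179-125603478) follow, with capitals marking a match to the STAT motif TTCNNNGAA.
Il33: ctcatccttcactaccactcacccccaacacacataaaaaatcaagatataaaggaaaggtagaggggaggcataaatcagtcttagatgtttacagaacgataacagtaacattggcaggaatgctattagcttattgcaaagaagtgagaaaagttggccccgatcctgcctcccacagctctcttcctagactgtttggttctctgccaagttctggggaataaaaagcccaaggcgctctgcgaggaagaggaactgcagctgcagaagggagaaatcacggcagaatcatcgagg
Tnfsf8: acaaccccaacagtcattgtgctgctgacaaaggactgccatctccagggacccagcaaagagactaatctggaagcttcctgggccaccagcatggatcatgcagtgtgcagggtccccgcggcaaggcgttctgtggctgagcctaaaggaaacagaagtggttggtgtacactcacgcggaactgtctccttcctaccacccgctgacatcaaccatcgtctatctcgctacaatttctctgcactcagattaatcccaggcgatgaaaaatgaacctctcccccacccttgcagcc
Tnfrsf11a: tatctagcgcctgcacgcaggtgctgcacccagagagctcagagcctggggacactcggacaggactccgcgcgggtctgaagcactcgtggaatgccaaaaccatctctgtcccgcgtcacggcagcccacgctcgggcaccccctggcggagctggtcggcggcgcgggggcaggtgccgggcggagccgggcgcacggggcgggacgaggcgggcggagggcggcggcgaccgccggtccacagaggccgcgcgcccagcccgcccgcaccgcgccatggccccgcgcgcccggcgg
Tnfrsf1a: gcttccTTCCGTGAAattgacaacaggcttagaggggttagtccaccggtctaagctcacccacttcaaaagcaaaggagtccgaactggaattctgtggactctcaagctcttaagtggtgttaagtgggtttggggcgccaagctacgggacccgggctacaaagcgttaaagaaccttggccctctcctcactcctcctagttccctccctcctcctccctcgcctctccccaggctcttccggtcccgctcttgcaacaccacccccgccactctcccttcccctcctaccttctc
Tnfrsf1b: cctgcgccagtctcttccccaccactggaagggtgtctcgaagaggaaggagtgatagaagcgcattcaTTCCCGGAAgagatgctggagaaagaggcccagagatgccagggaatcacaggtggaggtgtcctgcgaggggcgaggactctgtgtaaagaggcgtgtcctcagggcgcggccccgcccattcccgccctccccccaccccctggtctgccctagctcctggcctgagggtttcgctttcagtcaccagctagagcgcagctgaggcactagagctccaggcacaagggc
Il21r: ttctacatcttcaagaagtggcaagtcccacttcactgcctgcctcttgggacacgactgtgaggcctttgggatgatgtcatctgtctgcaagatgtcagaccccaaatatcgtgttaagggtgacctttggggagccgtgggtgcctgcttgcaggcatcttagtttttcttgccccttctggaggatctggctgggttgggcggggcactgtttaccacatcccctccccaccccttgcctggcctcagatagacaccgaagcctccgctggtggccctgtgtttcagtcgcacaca

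These 6 windows ranged from 46.3% G and C in Il33 to 76.7% in Tnfrsf11a. Both TNF receptors held 1 STAT match: TTCCGTGAA in Tnfrsf1a, which ended 235 bases before the start, and TTCCCGGAA in Tnfrsf1b, which ended 172 bases before it. The other 4 windows held none. Over the tested members with a promoter entry (24 of 30, in 33 windows because some genes have more than 1 start), 21.2% of windows held the STAT motif on either strand, against 8.30% of all 32851 promoters in the table. Of the 15 windows of the 11 members that rose in KO and had an entry, 3 held it (20%). The AP-1 motif TGANTCA was in 7 of the 33 windows (21.2%) and in 2 of these 15 (13.3%, both of Tnfsf13b), against 7.81% of all promoters. The NF-kB motif (its consensus with the central base left free) was in none of them, against 0.411% of all promoters, and the 1 tested member with a match was Il16. All motifs were searched on both strands, and a match or its absence describes these letters only.

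Between untreated genotypes, 0 of the 30 members were called, as for all tested genes (0 of 677); at an unadjusted p under 0.05, limma gave 3 members and 57 genes (8.42%). The 3 were Il7r (log2 difference 0.71, adjusted p = 0.575), Il10ra (0.82, adjusted p = 0.575) and Tnfrsf1b (0.62, adjusted p = 0.581), each with a higher KO mean. For 7 members the untreated groups did not overlap (Il16, Il22ra1, Il6ra, Il7r, Tnfrsf1b, Tnfsf10 and Tnfsf13), beside 11.7% of all tested genes. KO kidneys were the higher ones for these members except Il6ra. The median log2 difference was 0.28 over the members and 0.06 over all tested genes.

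After NTS, 13 of the 30 members were called between KO and WT kidneys (43.3%), 12 higher and 1 lower in KO, against 33.5% of all tested genes (31.2% higher and 2.36% lower). At an unadjusted p under 0.05 there were 20 members, against 44.3% of all tested genes. The median log2 difference was 0.69 over the members and 0.45 over all tested genes. Of the receptors 8 of 16 were higher in KO, with a median of 0.78, and of the ligands 4 of 12 were higher and 1 lower, with a median of 0.45. This comparison and the change after NTS in KO share the 3 treated KO kidneys, so their values stand side by side and are not independent.

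Among receptors, the log2 difference was 1.53, SE 0.28, adjusted p = 0.005 for Tnfrsf1b, which was 2.89-fold higher in KO than in WT mice given NTS. Il10ra was 2.79-fold higher (log2 difference 1.48, SE 0.31, adjusted p = 0.00621). Tnfrsf11a was 2.89-fold higher (log2 difference 1.53, SE 0.36, adjusted p = 0.00809). In each of these 3 receptors every treated KO kidney was above every treated WT kidney, and the calls were kept under all 5 scalings and with any 1 sample left out. Untreated KO kidneys already had higher means for Tnfrsf1b (0.62) and Il10ra (0.82), neither of them called. In limma, a difference between genotypes in the change after NTS was not called for Tnfrsf1b (0.91, adjusted p = 0.151). Nor was it called for Il10ra (0.66, adjusted p = 0.336) or Tnfrsf11a (1.62, adjusted p = 0.0656). Tnfrsf1a was 1.72-fold higher (log2 difference 0.78, SE 0.18, adjusted p = 0.00699) and lost its call only after median centring (0.19). Il6ra was 1.69-fold higher (log2 difference 0.76, SE 0.19, adjusted p = 0.0108), lost without KO NTS 1 and after median centring (0.16) or quantile normalization (0.10).

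Il21r was 2.94-fold higher (log2 difference 1.56, SE 0.42, adjusted p = 0.0156), Il2rg 1.88-fold (log2 difference 0.91, SE 0.30, adjusted p = 0.0343) and Il18r1 2.30-fold (log2 difference 1.20, SE 0.40, adjusted p = 0.0373). These 3 calls were lost after median centring, after quantile normalization and without WT NTS 2, WT NTS 3 or KO NTS 3, those of Il2rg and Il18r1 also without KO NTS 1, and that of Il18r1 also without KO NTS 2. In all 3, every treated KO kidney was above every treated WT kidney.

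Among ligands, Tnf was 2.14-fold higher (log2 difference 1.10, SE 0.32, adjusted p = 0.0225), Il16 1.61-fold (log2 difference 0.69, SE 0.22, adjusted p = 0.0312) and Il33 1.59-fold (log2 difference 0.67, SE 0.23, adjusted p = 0.0408), with no overlap between the groups. Tnfsf8 was 2.13-fold higher (log2 difference 1.09, SE 0.35, adjusted p = 0.0305), but WT NTS 1 was above KO NTS 2. Il15 was 1.88-fold lower (log2 difference -0.91, SE 0.25, adjusted p = 0.0156). All 5 calls were lost with WT NTS 2, WT NTS 3 or KO NTS 3 left out, and the estimate for Il16 was -0.07 after quantile normalization. Groups did not overlap for 18 members, against 42.5% of all tested genes. Among those not called was Tnfsf13b (log2 difference 0.60, adjusted p = 0.051). The 18 also held Il23r and Tnfaip6, which passed the filter only through the treated KO kidneys.

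After median centring 3 members were higher and 4 lower in treated KO than in treated WT kidneys, and the median of all genes moved from 0.45 to -0.14. The 3 members were Il10ra, Tnfrsf11a and Tnfrsf1b, and the 4 were Il11ra1, Il15, Tnfsf10 and Tnfsf13. After quantile normalization the counts of members were 4 and 4, against 90 and 97 of all tested genes, with a median of all genes of -0.07. On the positive controls the counts of members were 11 and 0, against 211 and 4, and on the reference genes 12 and 1, against 213 and 10.

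**Figure D4:**
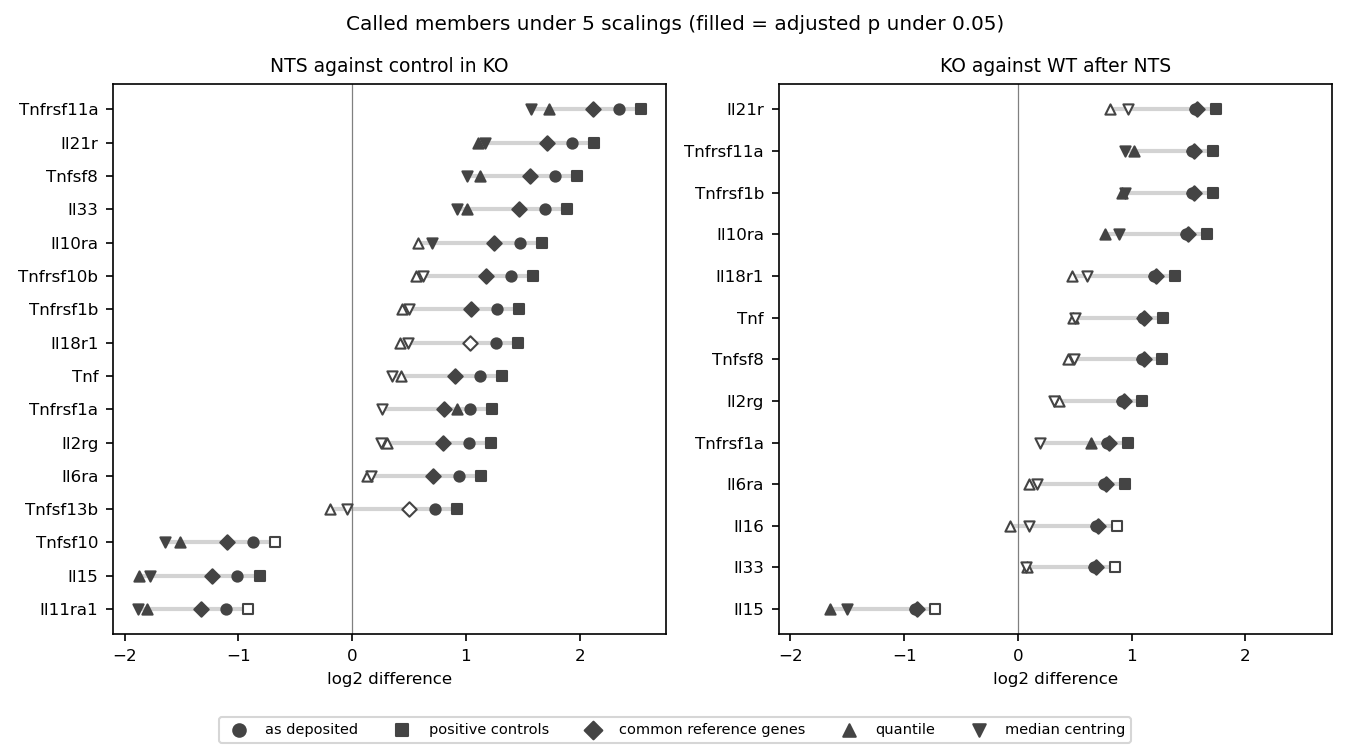
Log2 difference (x axis) of the 16 members called after NTS in KO and of the 13 called between KO and WT after NTS, each under 5 scalings (marker shapes; a filled marker has an adjusted p under 0.05 and the grey line joins the lowest and highest estimate). Markers of Tnfrsf11a are filled under all 5 scalings in both panels, while Tnfsf13b and Il16 cross 0.

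The change after NTS differed between genotypes for 2 of the 30 members (6.67%, against 10.3% of all tested genes, 9.6% higher and 0.739% lower), tested as the interaction of genotype and serum. Il6ra had a change of 0.94 in KO and -0.11 in WT, a difference of 1.04 (SE 0.27, adjusted p = 0.0356). Tnfrsf1a changed by 1.03 in KO and had an estimate of 0.13 in WT, a difference of 0.90 (SE 0.25, adjusted p = 0.0447). The next smallest adjusted p values were 0.0601 for Tnfsf10 (difference -0.78), 0.0656 for Tnfrsf11a (1.62), 0.0784 for Il15 (-1.02) and 0.0795 for Tnfsf8 (1.42). At an unadjusted p under 0.05 there were 11 members, against 28.7% of all tested genes. Neither called member kept its call under any of the other 4 scalings. Median centring called Tnfsf10 alone, against 2.95% of all tested genes. Quantile normalization called Tnfsf10 and Tnfsf13, against 6.79%. Each of these calls was of a lower change in KO, and the other 2 scalings called 0 members. With 1 sample left out, 0 members were called in 10 of 12 cases. Without WT control 2 there were 2 (1 higher and 1 lower), against 13.1% of all tested genes. Without WT NTS 1 there were 9 of 30 (7 higher and 2 lower), against 30.6%, so the members' share was near that of the panel.

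Of the listed pairs of a ligand and a receptor chain that binds it, 13 had both genes among the members and 4 had both tested. The list pairs Il15 with its alpha chain alone, which is no member; of its other 2 chains, Il2rg rose in KO and Il2rb was not called (log2 change 0.42, adjusted p = 0.256), while Il15 fell. In Tnf with Tnfrsf1a and with Tnfrsf1b, ligand and receptor both rose after NTS in KO kidneys (1.12, 1.03 and 1.27). In Tnfsf10 with Tnfrsf10b the ligand fell (-0.87) and the receptor rose (1.40). In Il11 with Il11ra1 the receptor fell (-1.11) and the ligand was not called (log2 change 0.25, adjusted p = 0.594). In the other 9 pairs at least 1 gene did not pass the filter, so no pair result was given. RANKL, the ligand of Tnfrsf11a, was not among the members.

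The 15 members that did not pass the filter ranged from 10.0 to 35.5, and 8 of them never reached 20. The highest was Il24, an IL-20 subfamily cytokine, with a signal of 15.1, 14.7 and 12.4 in the WT controls, 14.6, 16.7 and 12.3 in the WT mice given NTS, 12.5, 14.8 and 14.2 in the KO controls and 24.6, 19.4 and 35.5 in the KO mice given NTS. Outside the treated KO kidneys it exceeded the floor only in WT NTS 1 and WT NTS 2. Tnfrsf11b (osteoprotegerin), a decoy receptor of RANKL, had a signal of 16.2, 14.7 and 12.4 in the WT controls, 12.6, 17.7 and 12.3 in the WT mice given NTS, 15.3, 14.8 and 14.2 in the KO controls and 26.6, 17.3 and 26.9 in the KO mice given NTS. Tnfrsf17 (BCMA), a plasma cell receptor of APRIL and BAFF, had 15.1, 14.7 and 12.4 in the WT controls, 22.3, 10.0 and 17.5 in the WT mice given NTS, 12.5, 14.8 and 14.2 in the KO controls and 29.5, 19.4 and 19.2 in the KO mice given NTS. In both receptors the values outside the treated KO kidneys were mostly at or near the floor.

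Of the other T cell co-stimulatory genes, most values were at the floor. Tnfrsf8 (CD30), the receptor of the Tnfsf8 product, had 15.1, 20.2 and 12.4 in the WT controls, 11.7, 10.0 and 12.3 in the WT mice given NTS, 12.5, 24.9 and 14.2 in the KO controls and 13.9, 12.9 and 15.1 in the KO mice given NTS. Tnfrsf4 (OX40) had 15.1, 14.7 and 12.4 in the WT controls, 13.6, 10.0 and 12.3 in the WT mice given NTS, 12.5, 14.8 and 14.2 in the KO controls and 13.9, 15.1 and 19.2 in the KO mice given NTS. Its ligand Tnfsf4 had 20.1, 14.7 and 12.4 in the WT controls, 16.5, 13.6 and 14.6 in the WT mice given NTS, 12.5, 14.8 and 14.2 in the KO controls and 13.9, 12.9 and 15.1 in the KO mice given NTS. None of these 3 genes exceeded the floor in more than 4 of the 12 samples. Tnfrsf9 (4-1BB) had 15.1, 14.7 and 12.4 in the WT controls, 11.3, 10.0 and 12.3 in the WT mice given NTS, 12.5, 14.8 and 14.2 in the KO controls and 13.9, 15.1 and 15.1 in the KO mice given NTS. Tnfrsf18 (GITR) had 15.1, 14.7 and 12.4 in the WT controls, 13.6, 10.0 and 12.3 in the WT mice given NTS, 12.5, 14.8 and 14.2 in the KO controls and 13.9, 12.9 and 15.1 in the KO mice given NTS. Tnfrsf18 exceeded the floor only in WT NTS 1, and Tnfrsf9 only in KO NTS 2.

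The untested interleukins were the anti-inflammatory cytokine Il10, the alarmin Il1a, the T cell cytokines Il2, Il4 and Il17a, and the chains Il2ra and Il12rb2. Il10 had 15.1, 14.7 and 12.4 in the WT controls, 20.4, 10.0 and 12.3 in the WT mice given NTS, 12.5, 14.8 and 14.2 in the KO controls and 13.9, 14.0 and 15.1 in the KO mice given NTS. Il1a had 15.1, 14.7 and 13.6 in the WT controls, 11.7, 10.0 and 12.3 in the WT mice given NTS, 12.5, 14.8 and 14.2 in the KO controls and 13.9, 12.9 and 15.3 in the KO mice given NTS. Il2 and Il2ra had the same values, those of the floor, which were 15.1, 14.7 and 12.4 in the WT controls, 11.3, 10.0 and 12.3 in the WT mice given NTS, 12.5, 14.8 and 14.2 in the KO controls and 13.9, 12.9 and 15.1 in the KO mice given NTS. Because the floor itself differs between samples, differences among such values carry no order. Il4 ranged from 10.0 to 17.5, Il17a from 10.0 to 15.5 and Il12rb2 from 11.5 to 21.8.

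Other genes of the same pathways were taken from a list of 55, of which 27 were on the panel and 24 were tested. Their changes are those of the deposited scaling, and their estimates under the other scalings are not given here. Median centring took the change of Tnfrsf1a in KO from 1.03 to 0.26, and its difference after NTS from 0.78 to 0.19. It moves all genes of a sample by nearly the same amount, so estimates as small as those of Casp8 depend on the scaling. After NTS, 0 were called in WT kidneys, and 12 rose and 2 fell in KO kidneys, with a median log2 change of 0.63. Over all tested genes 7.98% were called in WT, and 39.6% rose and 8.57% fell in KO, with a median of 0.42. Of the 10 tested genes of TNF receptor signalling 4 rose in KO, among them Birc3, an inhibitor of apoptosis bound to TNF receptor complexes (log2 change 2.09, SE 0.27, adjusted p = 0.000161), and Casp8, the initiator caspase of death receptors (log2 change 0.78, SE 0.14, adjusted p = 0.001). Fadd, the adaptor of death receptors, and Chuk, a kinase of the NF-kB pathway, fell. Of the 8 tested kinases, STATs and their inhibitors, 5 rose, including Stat3, a transcription factor downstream of gp130 (log2 change 1.48, SE 0.22, adjusted p = 0.000309), and Jak3, the kinase bound to the common gamma chain (log2 change 1.34, SE 0.29, adjusted p = 0.00271).

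Myd88, the adaptor of IL-1 family receptors, rose (log2 change 1.05, SE 0.19, adjusted p = 0.000954), as did Cd40 (log2 change 1.07, SE 0.34, adjusted p = 0.0198) and Ltb (log2 change 0.88, SE 0.33, adjusted p = 0.0426), a TNF receptor family member and a TNF family ligand under other names. Between KO and WT after NTS, 8 of the 24 were higher in KO and 0 were lower, with a median of 0.44; they included Birc3 (log2 difference 1.26, SE 0.27, adjusted p = 0.00584), Casp8 (log2 difference 0.64, SE 0.14, adjusted p = 0.00699), Stat3 (log2 difference 0.77, SE 0.22, adjusted p = 0.0216) and Socs1, a feedback inhibitor of Janus kinases (log2 difference 1.23, SE 0.36, adjusted p = 0.022). Over all tested genes the median was 0.45, with 31.2% higher and 2.36% lower. Birc3 was the 1 gene of the 24 called in the limma interaction test (difference 1.47, adjusted p = 0.0356), against 10.3% of all tested genes. With WT control 1, WT NTS 2 or KO control 1 left out, for example, that test called no tested gene, and so not Birc3.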

How the data were processed

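Kidney RNA (column kit, per the labels' protocols) was measured in 12 mice, grouped by the genotype and treatment in the sample labels. Replicates are separate samples by label, so p-values measure the spread between these 3 samples a group. The instrument, its software and the run of each sample are not given in the sources used here.

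Values were used as the normalized signal that the authors deposited, neither raw counts nor log2. The deposited table has 750 endogenous and 20 housekeeping genes, 8 negative and 6 positive controls. Every value above the floor and under 1000 was a whole multiple of 1 step per sample (within 0.0055 of a step). Housekeeping genes had a geometric mean of 380.1 to 384.2. Count models were not run, because values at the floor are not whole steps. The other deposited table matched it in all 770 genes (largest difference 0), and 0 sample columns were left unmapped.

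Members and gene lists were chosen with earlier results of these data known. Tests used limma 3.58.1 in R 4.3.3 on log2(signal + 1), all 12 samples, 4 group means and a variance trend, 2-sided, for 5 comparisons, and were checked on simulated data. Sample numbers did not pair the samples: of 18 pairs with the same number, 3 correlated above 0.1 (-0.30 to 0.39), so no block was used. Every called member is named, members called nowhere are given by their levels, the 6 smallest p values of the serum comparisons and of KO against WT after NTS and the ligand and receptor pairs by every sample, and other pathway genes by the 2 smallest p values per role. Alternatives were a pseudocount of 16, no filter, a filter at 40, 4 other scalings, no variance trend and a robust variance estimate. Further ones were only the groups compared, a replicate block, each sample left out and, chosen after the data were seen, 1 floor of 15.1 for all samples. All 45 members matched RefSeq by accession.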

Additional observations from a re-analysis of the deposited data

Results flagged for a closer look

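Il6ra and Tnfrsf1a had a change after NTS that differed between WT and KO kidneys by the interaction test. For Il6ra the change in KO exceeded that in WT by 1.04 on the log2 scale (adjusted p = 0.0356, limma). For Tnfrsf1a it did so by 0.90 (adjusted p = 0.0447). Il6ra kept its call in 9 and Tnfrsf1a in 6 of 23 alternative settings.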

How the results depend on the processing

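For the 32 calls of single members, 762 repeats under other settings gave 621 with the same direction and side of the threshold, 138 below the threshold and 3 with the opposite sign. The 3 were Tnfsf13b after NTS in KO (-0.0465 after median centring, -0.19 after quantile normalization) and Il16 between KO and WT after NTS (-0.066 after quantile normalization). The count of members called after NTS in WT was 1. It was 0 with median centring, positive controls, reference genes, no variance trend, a replicate block or only the groups compared. Under these settings 0.295% (only the groups compared) to 11.5% (median centring) of all tested genes were called. With 1 sample left out the count was 0 to 3, with 3 without WT control 2, against 13.9% of all tested genes. In KO the count was 16, and 14 to 16 with 1 sample left out. In those fits 39.1% (without KO NTS 3) to 52.4% (without WT NTS 1 or WT NTS 2) of all tested genes were called. Between KO and WT after NTS the count was 13. It was 7 with median centring (25.7% of all tested genes called), 8 with quantile normalization (27.6%) and 5 with only the groups compared (20.8%). With 1 sample left out it was 5 (without KO NTS 3, 20.4%) to 18 (without WT NTS 1, 48.6%). For the interaction the count was 2. It was 1 with median centring (Tnfsf10, lower, with 2.95% of all tested genes called) or no variance trend (6.5%). It was 2 with quantile normalization (Tnfsf10 and Tnfsf13, both lower, 6.79%) and 0 with positive controls (1.33%) or reference genes (7.83%). With 1 sample left out it was 0 to 9, with 9 without WT NTS 1 (30.6%). Between untreated genotypes it was 0 under every setting. With no filter, 18 of 45 members were called after NTS in KO, against 42.7% of all 770 genes. Between KO and WT after NTS 16 of 45 were called, against 29.5%. The causes of these shifts were not tested. Signals near the floor of 10.0 to 15.1 limit what can be seen for the 15 untested members.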

Other observations

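Without the filter on low signal, Il24, Tnfrsf11b and Tnfrsf9 were also called in limma over all 770 genes. For Il24, the log2 change after NTS in KO was 0.85 (adjusted p = 0.00453) and the difference between KO and WT after NTS was 0.79 (adjusted p = 0.0114). For Tnfrsf11b these were 0.61 (adjusted p = 0.0218) and 0.68 (adjusted p = 0.0197). Tnfrsf9 was called only between KO and WT after NTS (0.36, adjusted p = 0.0414), although it exceeded the floor in KO NTS 2 alone. Most values of Il24 and Tnfrsf11b outside the treated KO kidneys were at or near a floor that differs between samples.

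By the RefSeq gene table, 5 pairs of members are next to each other in the genome, among them Tnfsf12 with Tnfsf13 and Tnfrsf1b with Tnfrsf8. Of the first pair neither was called in any comparison on the deposited scaling. Of the second, Tnfrsf1b rose in KO while Tnfrsf8 was at the floor in all 3 KO kidneys given NTS.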
